A study of Rattus norvegicus with 9 samples.

Results

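The genes described here are 38 genes of Kupffer cells, other macrophages and myeloid cells, listed by name, and their level was followed in the livers of stressed and unstressed diabetic rats. Of the 38 genes, 32 had a probe set that carries only that gene's symbol, out of 14217 genes measured in this way on the array. Liver RNA was hybridized to 1 Affymetrix rat expression array for each of 9 male Goto-Kakizaki (GK) rats, an inbred strain that becomes diabetic spontaneously. The rats entered the study at 5 weeks of age and were kept for 7 weeks until they were diabetic, and were then divided at random. Control 1 to 3 went without stress (labelled undepression). CUMS 1 to 6 went through 8 weeks of chronic unpredictable mild stress, a schedule of changing mild stressors used to bring on depression-like behaviour, and were housed singly. The labels put CUMS 1 to 3 under major depression and CUMS 4 to 6 under mild depression, and these groups are called CUMS major and CUMS mild below. All 9 rats were diabetic and all were given the glucose-lowering drug repaglinide by gavage for a pharmacokinetic test before the liver was taken, so every comparison is between diabetic, drug-treated animals. The comparisons ask whether stress, and the severity written in the labels, went with a different level of macrophage genes in the liver.

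Kupffer cells are the resident macrophages of the liver. They sit in the sinusoids, where they take up bacteria, bacterial products, worn red cells and immune complexes from portal blood, and they release cytokines when stimulated. Blood monocytes can enter the liver and become macrophages too, and most of the genes described here are expressed by both. Whole liver was extracted, of which hepatocytes make up most, so a lower signal of a macrophage gene may stand for fewer macrophages or for less RNA of the gene in each, and these cannot be told apart. Of the 38 genes, 6 had no single-symbol probe set and were not analysed here. They are Marco and Msr1, scavenger receptors, Vsig4, a complement receptor, Timd4, a receptor for dying cells, Spi1, which encodes the myeloid transcription factor PU.1, and Slc11a1, a metal transporter of the phagosome. Itgam and Ccr2 were measured but lay below the signal filter (a mean log2 signal of 6.07 over the 9 rats), so 30 genes were tested. Cd180, Elmo1 and Ccl2 passed this filter, a signal of 67.0, with a mean under it in CUMS major, and Ccl2 also in CUMS mild. They passed through the controls, in which they were high. Ncf1 was under the filter in control 1 and 2, with a mean log2 signal of 5.35. Without control 3 it thus passed through the stressed rats, in which it was higher.

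Control 3 stood apart from the other rats before any comparison was made. Its median correlation with the other arrays was 0.951, against 0.965 to 0.972 for the other rats, and its actin 3′ to 5′ signal ratio, a measure of RNA degradation that is low in intact RNA, was 2.51 against 3.18 to 5.23. The myeloid genes were high in this rat. The median gene was 0.78 higher on the log2 scale in control 3 than in the mean of control 1 and 2, 27 of 32 genes lay above that mean and 14 were over 2-fold above it. Over all 14217 genes the median difference was 0.05, 54.3% lay above that mean and 1653 genes were over 2-fold above it. Control 3 had the highest signal of all 9 rats in 27 of the 32 genes. Where leaving it out moved the log2 fold change of a gene or the median of a list by more than 1.5 times, the value without it is given as well. CUMS 2 had the highest actin and GAPDH 3′ to 5′ ratios, 5.23 and 1.75, followed by CUMS 4 at 4.96 and 1.46, while the GAPDH ratio was 1.32 to 1.37 in the other rats. The part of these ratios in the results was not tested. The 3 samples of a group are separate rats.

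Promoter sequence is shown for the 4 genes with the smallest p in CUMS major against control that have an entry in the promoter table (RefSeq, assembly GRCr8), to show what the starts of these genes hold for PU.1, the transcription factor on which macrophage genes depend. The lines give the 250 bases before the annotated start of the gene, 5′ to 3′ on the gene's strand, and capitals mark the 6 letters GAGGAA, the core of the site bound by PU.1, or their reverse complement TTCCTC. The core includes GGAA, which other factors of the ETS family also bind.
Elmo1 (chr17:49518160-49518409, minus strand): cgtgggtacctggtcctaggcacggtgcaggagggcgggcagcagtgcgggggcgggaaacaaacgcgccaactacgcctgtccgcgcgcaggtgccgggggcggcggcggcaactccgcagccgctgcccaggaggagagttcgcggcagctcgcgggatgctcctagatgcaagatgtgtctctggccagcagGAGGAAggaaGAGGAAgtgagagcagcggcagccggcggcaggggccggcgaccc
Cd180 (chr2:35589680-35589929, plus strand): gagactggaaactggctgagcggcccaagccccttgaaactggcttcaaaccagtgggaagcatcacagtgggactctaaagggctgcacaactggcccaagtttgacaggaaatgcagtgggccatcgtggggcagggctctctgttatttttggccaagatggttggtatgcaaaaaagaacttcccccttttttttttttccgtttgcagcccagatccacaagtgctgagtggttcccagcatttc
Adgre1 (chr9:2329190-2329439, plus strand): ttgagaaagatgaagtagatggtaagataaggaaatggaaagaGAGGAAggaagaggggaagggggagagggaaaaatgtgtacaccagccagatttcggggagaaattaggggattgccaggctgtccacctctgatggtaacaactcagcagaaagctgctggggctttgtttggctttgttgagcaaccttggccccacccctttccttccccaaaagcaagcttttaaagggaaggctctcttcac
Cd68 (chr10:54882442-54882691, minus strand): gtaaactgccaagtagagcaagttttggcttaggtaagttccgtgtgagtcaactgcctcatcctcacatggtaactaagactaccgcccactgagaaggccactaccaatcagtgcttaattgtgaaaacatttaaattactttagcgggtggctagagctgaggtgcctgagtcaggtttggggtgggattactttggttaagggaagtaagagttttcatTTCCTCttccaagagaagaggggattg
Elmo1 held 2 copies, of which the nearer ended 40 bases before the start. Adgre1 held 1 copy, ending 202 bases before the start, and Cd68 held 1 copy on the other strand, ending 22 bases before it. In Cd180 the letters were not found in this window. The promoter table had an entry for 27 of the 38 genes, and 14 of these (51.9%) held the letters on either strand, against 7812 of 33469 promoters of the same length (23.3%). Each of the 27 genes was counted by 1 entry, while the 33469 are all entries of the table, so the sets were built differently. Holding the letters is a match of letters, not evidence of binding.

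Most myeloid genes had a lower mean signal in the stressed rats, and none passed the test at an adjusted p under 0.05. In CUMS major, 29 of the 32 genes had a lower mean than in control, with a median log2 fold change of −0.53. Without control 3, the counts were 28 of 32 and the median was −0.32. Over all 14217 genes, 53.2% had a lower mean and the median was −0.02. With limma and Benjamini-Hochberg adjustment, 0 of 30 tested genes had an adjusted p under 0.05 (lowest 0.599, for Elmo1), and the share over all 18625 probe sets tested was 0%. At an unadjusted p under 0.05, 14 of 30 lay lower, against 4.17% of all probe sets, and 1 (Cd14) lay higher, against 2.59%. The 14 were Elmo1, Cd180, Aif1, Adgre1, Cd68, Fcer1g, Il18, Mpeg1, Cybb, C1qc, C1qa, Lyn, Coro1a and Ccl2. Without control 3, 5 of 30 remained lower at this p, namely Adgre1, Cd180, Aif1, Mpeg1 and Elmo1, against 2.99% of all probe sets. The 2 genes that lay higher were Cd14 and Ncf1, against 2.53%, and Ncf1 was under the signal filter in control 1 and 2. Without CUMS 2, 4 of 30 lay lower (Adgre1, Cd180, Aif1 and Elmo1), against 2.57%. With Cd180, Elmo1 and Ccl2 set aside, a choice made after seeing the data, 11 of 27 genes lay lower with all rats and 3 of 27 without control 3. All 3 CUMS major rats lay below all 3 controls in 6 of 30 genes, against 6.32% of probe sets, and above them in 1, Cd14, against 5.3%. Without control 3 they lay below the other controls in 7 of 30, against 11.2% of probe sets. Both counts of genes below the controls include Cd180 and Elmo1, which passed the signal filter through the controls.

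CUMS mild gave much the same picture against the same 3 control rats. The mean was lower in 28 of 32 genes, with a median of −0.51 on the log2 scale, and in 27 genes with a median of −0.28 without control 3. With limma, 0 of 30 had an adjusted p under 0.05 (lowest 0.743, for Cd14), and the share of all probe sets was again 0%. At an unadjusted p under 0.05, 9 lay lower (Adgre1, Cd180, Cd68, Fcer1g, Aif1, Itgb2, Lyn, Mpeg1 and Elmo1), against 3.55% of probe sets, and Cd14 alone lay higher, against 2.73%. Without control 3, 2 were still lower at this p, Cd180 and Mpeg1, against 2.53% of probe sets, and as many were higher, Cd14 and Ncf1, against 2.63%. With Cd180, Elmo1 and Ccl2 set aside, 7 of 27 lay lower with all rats and 1 of 27 without control 3. The CUMS mild rats lay wholly below the controls in 7 of 30 genes, against 6.29% of probe sets, and wholly above them in Cd14, against 5.34%. Without control 3 they lay wholly below in 7 of 30, against 11.0% of probe sets. Cd180 and Elmo1 are again in both counts.

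With all 6 stressed rats in 1 comparison, 17 of 30 genes lay lower at an unadjusted p under 0.05 (4.86% of all probe sets), Cd14 lay higher (3.07%), and again 0 of 30 had an adjusted p under 0.05 in limma (0% of all probe sets, lowest value 0.444). Without control 3, 5 of 30 lay lower, against 2.88% of probe sets, and 2 lay higher, against 2.77%. In 5 genes, Adgre1, Cd180, Aif1, Mpeg1 and Elmo1, each of the 6 stressed rats was below each of the 3 controls, which held for 2.15% of all probe sets. Without control 3 it was the same 5 genes, against 4.42% of probe sets. Of these genes, Cd180 and Elmo1 passed the signal filter through the controls, in which they were high, which leaves Adgre1, Aif1 and Mpeg1. In Cd14 each of the 6 stressed rats was above each control, which held for 1.52%. The 3 comparisons with control share the same control rats and are not independent of each other.

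**Figure D1:**
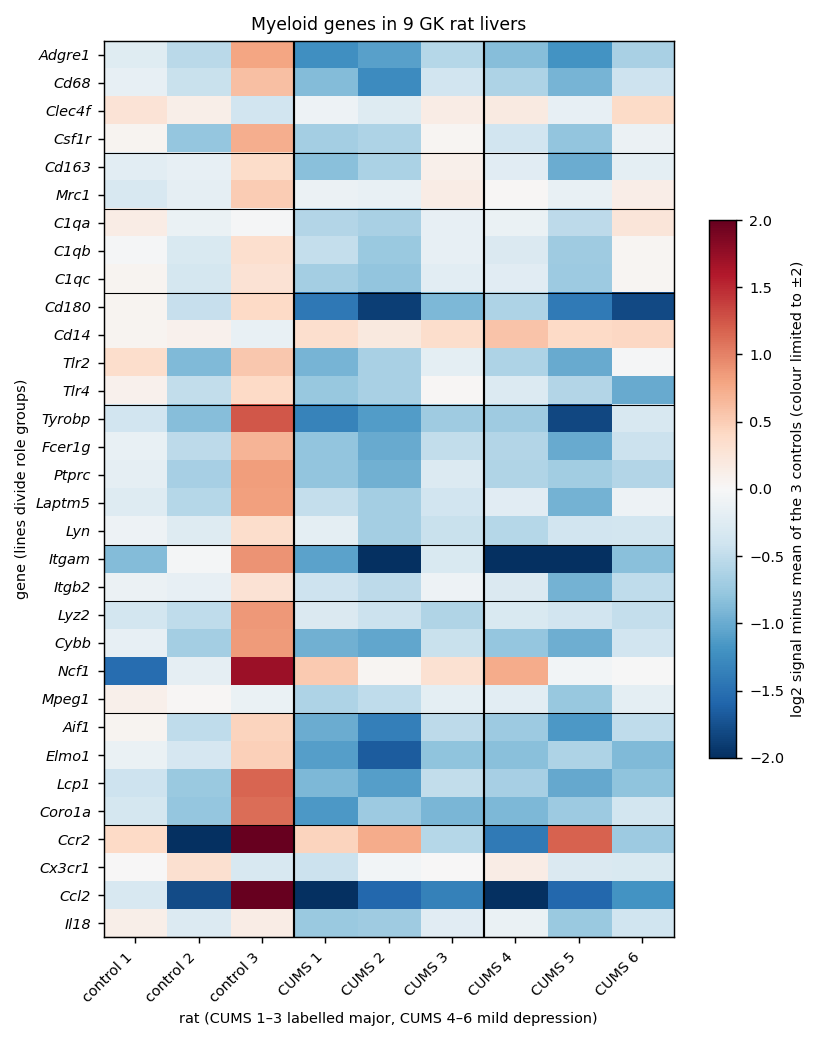
Log2 signal of each of the 32 measured genes in each of the 9 rats, minus the mean of the 3 controls for that gene, with blue for lower and red for higher (colour limited to 2 in either direction) and lines between the groups of genes by role. Control 3 is the highest rat in 27 of 32 genes, and Cd14 is red in all 6 CUMS rats.

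The stressed rats also differed among themselves. CUMS 1, CUMS 2 and CUMS 5 lay below all 3 controls in 23, 21 and 23 of the 32 genes. CUMS 2, the rat with the highest 3′ to 5′ ratios, was the lowest of the 9 rats in 11 genes and CUMS 5 in 9. CUMS 3 and CUMS 6 lay below all 3 controls in only 9 and 10 genes, and CUMS 4 in 15. The mean of the 32 genes relative to the control mean was −0.68, −0.80 and −0.32 on the log2 scale in CUMS 1 to 3 and −0.54, −0.79 and −0.39 in CUMS 4 to 6. It was −0.14, −0.49 and 0.63 in control 1 to 3, so CUMS 3 and CUMS 6 lay within the range of the controls. The spread within a group was widest among the controls in 22 of the 32 genes, with a median SD of 0.51 on the log2 scale, against 0.31 in CUMS major and 0.32 in CUMS mild. The counts per rat and of the widest spread were not taken over all genes of the array. They describe the 32 genes and do not set them apart from other genes.

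Of the surface proteins that mark macrophages, Adgre1 and Cd68 had lower means in both stressed groups, and the values of Csf1r and Clec4f depended on control 3. Adgre1 encodes F4/80, an adhesion receptor that is a standard marker of rodent macrophages. Its signal was 940, 765 and 1920 in control 1 to 3, 478, 524 and 753 in CUMS 1 to 3, and 616, 489 and 707 in CUMS 4 to 6. Every stressed rat was below every control rat, though CUMS 3 came close to control 2. That is a log2 fold change of −0.96 ± 0.31 (SE) in CUMS major (adjusted p = 0.713, limma) and −0.90 ± 0.31 in CUMS mild (adjusted p = 0.744), and −0.56 and −0.51 without control 3.

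Cd68, a lysosomal membrane protein of phagocytes, measured 1726, 1417 and 2943 in the controls, 1062, 803 and 1483 in CUMS 1 to 3 and 1258, 1011 and 1449 in CUMS 4 to 6. CUMS 3 and CUMS 6 overlapped with control 2. In the limma fit the log2 fold change was −0.84 ± 0.28 (adjusted p = 0.722) and −0.66 ± 0.28 (adjusted p = 0.778), and −0.53 and −0.35 without control 3. Csf1r, the receptor for the growth factor on which macrophages live, had signals of 1451, 815 and 2321 in the controls, 870, 908 and 1434 in CUMS major and 1077, 812 and 1293 in CUMS mild. The groups overlapped widely, and the log2 fold change of −0.43 in either stressed group became −0.06 without control 3.

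Clec4f is a lectin found in the liver only on Kupffer cells, which makes it the most specific marker of the list. Its signal was 6745, 6066 and 4304 in the controls, 5202, 4667 and 6207 in CUMS 1 to 3 and 6374, 5002 and 7336 in CUMS 4 to 6. Here control 3 was the lowest of the 9 rats, opposite to its place in Adgre1 and Cd68. The log2 fold change was −0.07 (95% interval −0.49 to 0.34) in CUMS major and 0.14 (−0.28 to 0.55) in CUMS mild. Without control 3 it was −0.27 (−0.64 to 0.11) and −0.05 (−0.43 to 0.32).

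Of the receptors for scavenged ligands, Cd163 binds complexes of haemoglobin and haptoglobin, and Mrc1 is the mannose receptor, which sinusoidal endothelial cells express as well. Cd163 measured 1047, 1085 and 1565 in the controls, 676, 783 and 1298 in CUMS 1 to 3 and 1040, 610.5 and 1061 in CUMS 4 to 6. The log2 fold changes were −0.46 ± 0.28 and −0.47 ± 0.28 (limma adjusted p = 0.787 and 0.821), with CUMS 3 above control 1 and 2, and −0.27 and −0.28 without control 3. Mrc1 was at −0.04 and 0.01 on the log2 scale, and at 0.22 and 0.26 without control 3.

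C1qa, C1qb and C1qc encode the chains of C1q, the recognition unit of the classical complement pathway, which in the liver is made by Kupffer cells. They are 3 consecutive protein-coding genes in RefSeq, in the order C1qb, C1qc, C1qa. C1qa measured 7062, 5855 and 6314 in the controls, 4272, 4081 and 5717 in CUMS 1 to 3 and 5807, 4453 and 7563 in CUMS 4 to 6. All CUMS major rats were below all controls, and CUMS 6 was the highest of the 9 rats. The log2 fold change was −0.46 ± 0.19 in CUMS major (adjusted p = 0.733, limma) and −0.14 ± 0.19 in CUMS mild (adjusted p = 0.927). Control 3 carried little of it, since the value without that rat was −0.47 in CUMS major.

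C1qb had signals of 3349, 2750 and 4315 in the controls, 2445, 2033 and 3061 in CUMS 1 to 3 and 2789, 2091 and 3519 in CUMS 4 to 6. C1qc had signals of 2877, 2163 and 3367, then 1715, 1604 and 2374, then 2361, 1662 and 2822 in the same order. The 3 chains ranked the stressed rats nearly alike, with CUMS 2 lowest in each, and CUMS 3 highest in CUMS major and CUMS 6 highest in CUMS mild. Their log2 fold changes were −0.46 and −0.56 in CUMS major and −0.32 and −0.31 in CUMS mild for C1qb and C1qc, none past the adjusted threshold. Without control 3 they were −0.29 and −0.42 in CUMS major and −0.15 and −0.16 in CUMS mild.

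Among receptors for bacterial products, Cd14 and Cd180 lay at opposite ends of the list. Cd14 binds lipopolysaccharide and hands it to Tlr4, and hepatocytes also express it. Its signal was 5208, 5343 and 4534 in the controls, 6362, 5723 and 6408 in CUMS 1 to 3 and 7448, 6613 and 6663 in CUMS 4 to 6. The 3 groups did not overlap at all, with control lowest and CUMS mild highest. Cd14 had a log2 fold change of 0.30 ± 0.10 in CUMS major (adjusted p = 0.722, limma) and 0.46 ± 0.10 in CUMS mild (adjusted p = 0.743), and 0.22 and 0.39 without control 3.

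Cd180 is a relative of Tlr4 that dampens lipopolysaccharide signalling in macrophages and dendritic cells and is also found on B cells. Its signal was 184, 128 and 234 in the controls, 65.5, 47.9 and 94.9 in CUMS 1 to 3 and 115, 66.7 and 50.6 in CUMS 4 to 6. All 6 stressed rats were below all controls, and 4 of them (CUMS 1, 2, 5 and 6) lay under the signal filter of 67.0. Cd180 had a log2 fold change of −1.41 ± 0.39 in CUMS major (adjusted p = 0.624, limma) and −1.28 ± 0.39 in CUMS mild (adjusted p = 0.744), and it was still −1.20 and −1.08 without control 3. Tlr4 itself, the lipopolysaccharide receptor, and Tlr2, the receptor for bacterial lipoproteins, had lower means with overlapping groups, at −0.46 and −0.59 in CUMS major and −0.62 and −0.55 in CUMS mild. Without control 3 they were −0.26 and −0.32, and −0.42 and −0.28.

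The genes of engulfment and of the leukocyte cytoskeleton had a median log2 fold change of −0.95 in CUMS major and −0.79 in CUMS mild, and all 4 had a lower mean in both. Without control 3 the medians were −0.55 and −0.39. Elmo1 works with a Dock protein to switch on Rac when a cell engulfs dying cells. Its signal was 130.2, 113 and 199.8 in the controls, 67.0, 45.4 and 82.4 in CUMS 1 to 3 and 80.6, 93.1 and 78.1 in CUMS 4 to 6. The highest stressed rat, CUMS 5, was below the lowest control rat, and CUMS 1 and CUMS 2 were under the signal filter. Elmo1 had a log2 fold change of −1.19 ± 0.32 in CUMS major (adjusted p = 0.599, limma) and −0.78 ± 0.32 in CUMS mild (adjusted p = 0.770), and −0.95 and −0.54 without control 3.

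Aif1 encodes Iba1, an actin-bundling protein of macrophages and microglia. Its signal was 2370, 1605 and 3108 in the controls, 1151, 880 and 1585 in CUMS 1 to 3 and 1378, 1024 and 1594 in CUMS 4 to 6. Every stressed rat was below every control, but CUMS 3 and CUMS 6 only just, and a second, far dimmer Aif1 probe set gave 0.12 in CUMS major and −0.20 in CUMS mild (0.34 and 0.02 without control 3). The brighter probe set had a log2 fold change of −0.96 ± 0.27 in CUMS major (adjusted p = 0.641, limma) and −0.80 ± 0.27 in CUMS mild (adjusted p = 0.744), and −0.74 and −0.57 without control 3. Lcp1, an actin-bundling protein of leukocytes, and Coro1a, a coronin that keeps phagosomes from fusing with lysosomes, leaned on control 3. Lcp1 went from −0.83 in both groups to −0.24 in both without that rat, and Coro1a from −0.93 and −0.66 to −0.37 and −0.10.

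**Figure D2:**
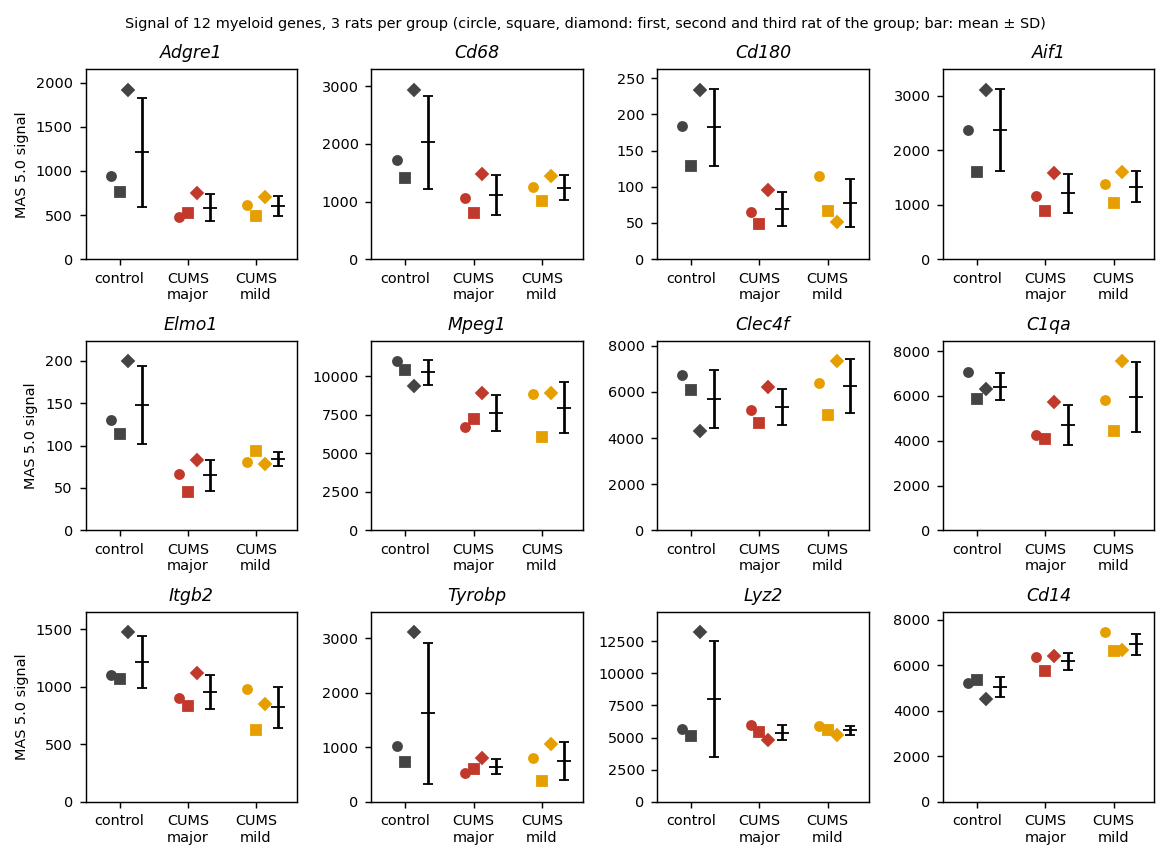
MAS 5.0 signal (linear axes from 0) of 12 genes in each rat, with control in black, CUMS major in red and CUMS mild in yellow, circle, square and diamond for the rats of a group in the order of their numbers, and bars for mean ± SD (n = 3). The black diamond is control 3, which lies far above the rest in Tyrobp and Lyz2, while in Cd14 the 3 groups do not overlap.

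The adaptors that pass on signals from myeloid receptors had lower means in all 5 genes, with medians of −0.68 and −0.63, both −0.26 without control 3. Fcer1g, the signalling chain shared by activating Fc receptors, measured 3739, 2882 and 6669 in the controls, 2405, 2078 and 2950 in CUMS 1 to 3 and 2768, 2066 and 3071 in CUMS 4 to 6. Only CUMS 3 and CUMS 6 overlapped with the lowest control. The log2 fold change was −0.76 ± 0.27 (adjusted p = 0.722) and −0.68 ± 0.27 (adjusted p = 0.767) in the limma fit, and −0.42 and −0.34 without control 3. Tyrobp (DAP12), the adaptor of Trem2, rested more on control 3, where its signal was 3108 against 1013 and 731 in the other controls. Its log2 fold changes of −1.06 and −0.95 became −0.44 and −0.33 without it. Lyn, a Src-family kinase, gave −0.44 in both stressed groups, and −0.26 in both without control 3. A second, dimmer Lyn probe set gave −0.28 and −0.31, and −0.20 and −0.23 without control 3. Ptprc (CD45, the phosphatase on all white blood cells) went from −0.68 and −0.63 to −0.26 and −0.21 without that rat. Its second, dimmer probe set went from −0.49 and −0.86 to −0.07 and −0.44. Laptm5, a lysosomal protein of blood cells, went from −0.51 and −0.43 to −0.10 and −0.01. A second Laptm5 probe set of nearly the same brightness gave −0.77 and −0.86, and still −0.38 and −0.47 without control 3.

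Itgb2 is the beta chain of the leukocyte integrins and Itgam the alpha chain that pairs with it in complement receptor CR3. Itgb2 measured 1104, 1070 and 1475 in the controls, 904, 834 and 1123 in CUMS 1 to 3 and 985, 628 and 849 in CUMS 4 to 6. All CUMS mild rats were below all controls, and CUMS 3 was above control 1 and 2. The log2 fold change was −0.35 ± 0.19 in CUMS major (adjusted p = 0.769, limma) and −0.58 ± 0.19 in CUMS mild (adjusted p = 0.744), and −0.20 and −0.43 without control 3. Itgam was dim, at 52.2 to 178 in the controls, 11.8 to 77.3 in CUMS major and 6.96 to 53.0 in CUMS mild. It was not tested, and its log2 differences of −1.46 and −2.79 (−1.01 and −2.34 without control 3) rest on signals where noise is large.

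Of the genes by which phagocytes kill, the difference in Mpeg1 did not rest on control 3. It encodes perforin-2, a pore-forming protein of the phagosome. The signal was 10976, 10399.6 and 9357 in the controls, 6684, 7188 and 8922 in CUMS 1 to 3 and 8863, 6055 and 8927 in CUMS 4 to 6. All 6 stressed rats were below control 3, which was the lowest control here. Mpeg1 had a log2 fold change of −0.44 ± 0.16 in CUMS major (adjusted p = 0.731, limma) and −0.39 ± 0.16 in CUMS mild (adjusted p = 0.777), and −0.50 and −0.45 without control 3. A second, dimmer Mpeg1 probe set gave −0.56 and −0.76, and −0.65 and −0.86 without control 3. Its groups overlapped, with CUMS 3 (976) and CUMS 6 (850) above control 1 (816) and control 3 (747). Cybb, the catalytic subunit of the NADPH oxidase, gave −0.82 and −0.71, and −0.39 and −0.28 without control 3. A second, dimmer Cybb probe set gave −0.69 and −1.03, and −0.19 and −0.53 without control 3.

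Lyz2, the lysozyme of macrophages and neutrophils, was at 5654 and 5133 in control 1 and 2, at 13208 in control 3 and between 4769 and 5958 in all 6 stressed rats. Its log2 differences of −0.44 and −0.39 became −0.01 and 0.04 without control 3. Ncf1, a cytosolic subunit of the oxidase, was at 25.6 and 64.8 in control 1 and 2, both under the signal filter. It was at 241 in control 3 and between 71.2 and 124 in the stressed rats. Its log2 fold change of 0.29 in CUMS major became 1.14 without control 3, and 0.23 in CUMS mild became 1.09. In these genes the size of the difference changed when this 1 rat was left out.

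Ccl2, the chemokine that draws monocytes out of the blood, passed the signal filter only through the controls, since its mean lay under it in both stressed groups. The log2 fold change was −1.68 ± 0.76 in CUMS major (adjusted p = 0.737, limma) and −1.60 ± 0.76 in CUMS mild (adjusted p = 0.779). Its signal was 162, 58.6 and 875 in the controls, 47.0, 67.9 and 79.2 in CUMS 1 to 3 and 49.6, 67.8 and 88.5 in CUMS 4 to 6. Control 3 was over 5 times the next highest rat, control 2 lay among the stressed rats, and without control 3 the values were −0.62 and −0.54. Il18, a cytokine made by Kupffer cells, was at 773 to 1035 in the controls, 558 to 799 in CUMS major and 557 to 855 in CUMS mild, with log2 fold changes of −0.56 and −0.43, and −0.49 and −0.35 without control 3. Cx3cr1, the fractalkine receptor of monocytes, gave −0.16 and −0.15, and −0.33 and −0.31 without control 3. Ccr2, the receptor for Ccl2, was dim at 1.91 to 50.9 in the controls and 4.26 to 25.6 in the stressed rats, and was not tested.

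**Figure D3:**
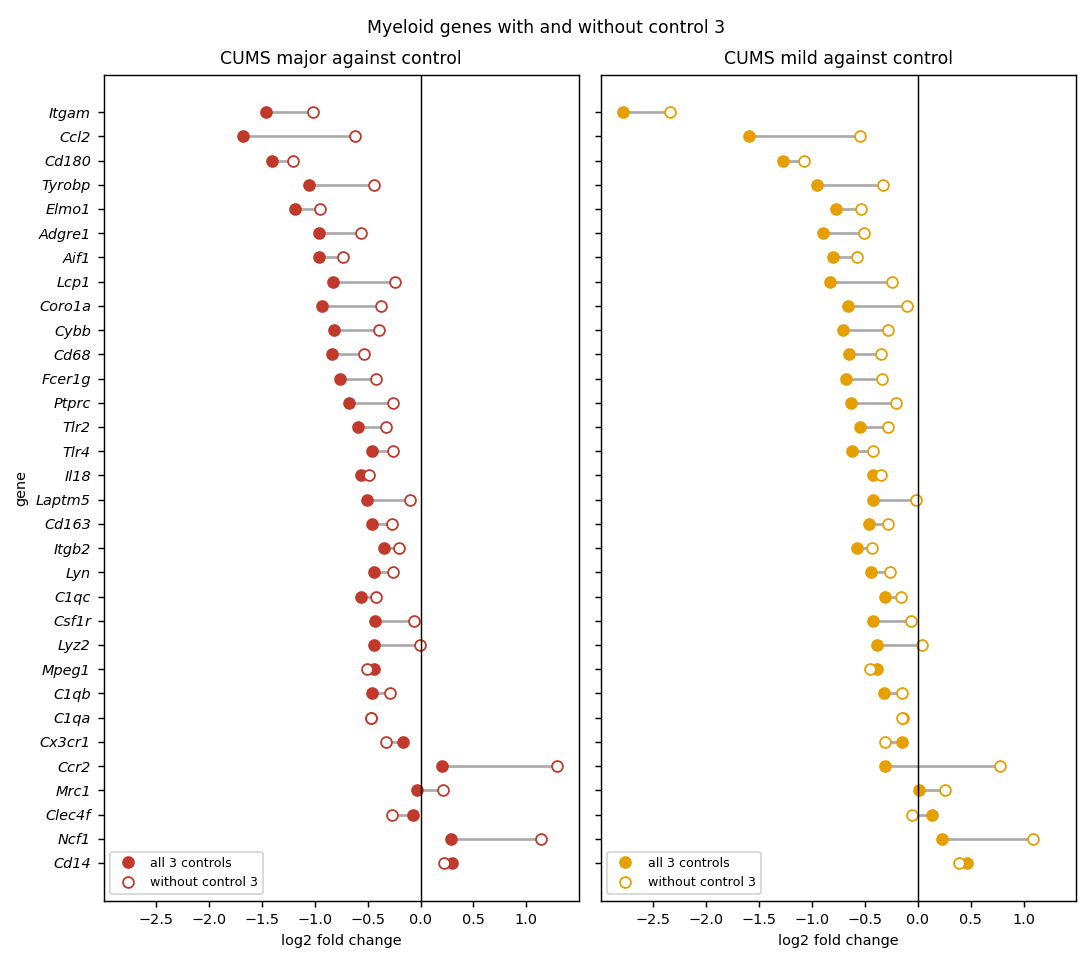
Log2 fold change of each of the 32 genes against control in CUMS major (left) and CUMS mild (right), with all 3 controls (filled) and without control 3 (open), in the order of the difference over all 6 CUMS rats. Most open points lie nearer to 0, the median moving from −0.53 to −0.32 and from −0.51 to −0.28, while Mpeg1 and C1qa hardly move and Ncf1 and Ccr2 lie far to the right without control 3.

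The size of most differences depended on control 3. It lay most above the mean of the other controls in Ccr2, Ccl2 and Ncf1 (3.26, 3.17 and 2.56 on the log2 scale), then in Tyrobp, Lcp1 and Coro1a (1.85, 1.75 and 1.69). It lay below that mean in 5 genes, namely C1qa (−0.03), Mpeg1 (−0.19), Cd14 (−0.22), Cx3cr1 (−0.49) and Clec4f (−0.57). In the fit without control 3, 0 of 30 genes had an adjusted p under 0.05 in limma in either group, with values from 0.832 to 0.996 in CUMS major and from 0.829 to 0.999 in CUMS mild.

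No gene passed the test between the severity labels. CUMS major had a lower mean than CUMS mild in 23 of 32 genes, with a median log2 difference of −0.07 against −0.01 over all genes. With limma, 0 of 30 genes had an adjusted p under 0.05 (0% of all probe sets, all values 0.9996) and 0 had an unadjusted p under 0.05, against 2.85% of all probe sets. The groups did not overlap in 1 gene, Cd14, against 9.11% of probe sets. The smallest p values belonged to C1qa, at −0.32 (95% interval −0.74 to 0.09), Cd14, at −0.16 (−0.39 to 0.06), and Elmo1, at −0.41 (−1.11 to 0.29). They were followed by Itgb2, which was higher in CUMS major at 0.23 (−0.20 to 0.66), C1qc, at −0.25 (−0.75 to 0.24), and Clec4f, at −0.21 (−0.63 to 0.20). The intervals are wide, and the groups are not shown to be alike.

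Other genes of macrophages, listed apart from the 38, leaned the same way. Of 23 further Kupffer cell and macrophage genes measured, 22 had a lower mean in CUMS major and 22 in CUMS mild, with medians of −0.63 and −0.37, and −0.44 and −0.21 without control 3. None of the 20 tested passed an adjusted p under 0.05, and 8 and 6 lay lower at an unadjusted p under 0.05, against 4.17% and 3.55% of all probe sets. Without control 3 these counts were 4 and 4, against 2.99% and 2.53%. Fcgr3a, an activating Fc receptor, was at 1234, 930 and 1034 in the controls, 522, 289.7 and 797 in CUMS 1 to 3 and 696, 374 and 584 in CUMS 4 to 6, and its log2 fold changes were −1.10 and −0.99 (−1.12 and −1.01 without it). Irf8, a transcription factor of monocytes and macrophages, gave −0.75 and −0.64. Gpnmb, a glycoprotein of lipid-laden macrophages, gave −1.79 and −1.76, and −0.91 and −0.88 without control 3, with a signal of 10247 in control 3 against 1319 and 2064 in the other controls. Of 13 further oxidase and kinase genes, 13 and 12 had lower means, and 10 in each without control 3, where the medians went from −0.53 and −0.34 to −0.28 and −0.05. Among them Cyba, the partner chain of Cybb, gave −0.87 and −0.75. Ptpn6, the phosphatase SHP-1, gave −0.43 and −0.16 (−0.29 and −0.02 without control 3), and Ncf4, another cytosolic oxidase subunit, gave −0.75 and −1.07.

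Of 15 inflammatory cytokine and chemokine genes, 13 and 12 had lower means in CUMS major and CUMS mild, with medians of −0.54 and −0.66, and −0.48 and −0.68 without control 3. Of the 15, 9 passed the signal filter and were tested. Il1b, a cytokine of activated macrophages, was at 599.8, 287 and 764 in the controls, 278, 156 and 242 in CUMS 1 to 3 and 299, 202 and 289.7 in CUMS 4 to 6 (log2 fold changes −1.21 and −0.97). Il1rn, the antagonist of its receptor, gave −0.60 and −0.40, and Cxcl10, a chemokine for T cells, −1.23 and −0.98. No gene of these lists passed the adjusted threshold.

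Marker genes of other cell types were read in the same rats, and in 4 lists control 3 was the highest rat and most markers had lower means in the stressed rats. All 10 markers of monocytes and recruited macrophages had a lower mean in CUMS major and 9 in CUMS mild, and their mean log2 level relative to control ranged from −0.80 to 1.24 in the controls, −1.37 to −0.62 in CUMS major and −1.28 to −0.65 in CUMS mild. The medians of −0.78 and −0.96 became −0.20 and −0.16 without control 3, with 8 of 10 lower in each group. The 3 genes of this list with the smallest p in CUMS major were Plac8, Ly6c and Ccl6, at −0.80, −0.76 and −0.40, and −0.70, −1.15 and −0.46 without control 3.

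All 12 markers of stellate cells and fibroblasts were lower in both groups, with ranges of −0.70 to 1.32, −1.35 to −1.04 and −0.85 to −0.67. Without control 3, 12 and 9 were lower, and the medians went from −0.97 and −0.58 to −0.56 and −0.27. Pdgfra, Reln and Col14a1 were at −0.94, −0.72 and −1.01 in CUMS major, and at −0.80, −0.67 and −0.85 without control 3. All 8 genes of dividing cells were lower in both groups too, with ranges of −0.60 to 1.13, −1.44 to −0.30 and −1.38 to −1.01. Their medians of −0.93 and −1.27 became −0.28 and −0.89 without control 3, with 6 and 7 lower. The replication genes Mcm3, Mcm6 and Pcna were at −1.35, −1.13 and −0.35 in CUMS major, and at −0.99, −0.86 and −0.20 without control 3.

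All 5 bile duct markers were lower in both groups, with ranges of −0.70 to 1.30, −1.16 to −0.42 and −0.95 to −0.70. Without control 3, 3 and 4 were lower, and the medians went from −0.62 and −0.44 to −0.07 and −0.19. Spp1 measured 7740 in control 3 against 181 and 167 in the other controls, and its value of −1.90 in CUMS major became −0.07 without that rat. Krt19 and Epcam were at −1.09 and −0.34, and at −0.75 and −0.17 without control 3.

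Most dendritic cell markers had lower means in the stressed rats, and the mean of this list was not high in control 3. Only 3 of the 5 markers, Cd83, Clec10a and Batf3, passed the signal filter, so this mean also rests on dimmer genes. In CUMS major 4 of 5 had a lower mean and in CUMS mild all 5, with or without control 3. Their mean log2 level was −0.07 to 0.04 in the controls, −0.63 to −0.48 in CUMS major and −1.05 to −0.83 in CUMS mild, and control 3 was the lowest control. The medians were −0.59 and −0.81, and −0.23 and −0.67 without control 3. Cd83, Clec10a and Batf3 were at −0.59, −0.81 and 0.35 in CUMS major, and at −0.23, −0.01 and 0.38 without control 3. Single markers were high in control 3, namely Cd83 (670 against 322 and 306 in control 1 and 2) and Clec10a (1201 against 217 and 235). NK cell markers were lower in 6 of 9 in both groups, also without control 3, and Gzmk, Nkg7 and Klrk1 were at −0.41, −0.39 and −0.88 in CUMS major.

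In the lists of neutrophils, lymphocytes, red blood cells and endothelial cells the counts were mixed. Only 3 of 9 neutrophil, 5 of 11 T cell and 2 of 6 B cell markers passed the signal filter. The counts of these lists thus include dim genes, where noise is large. Control 3 was still the highest rat in the neutrophil, T cell and endothelial lists, with means of 1.38, 0.71 and 0.34 relative to control. Of 9 neutrophil markers, 4 were lower in CUMS major and 5 in CUMS mild, and 2 in each without control 3. S100a9, S100a8 and Lcn2 gave 0.95, 0.87 and 0.19 in CUMS major, and 1.75, 1.69 and 0.92 without control 3. T cell markers were lower in 5 and 4 of 11, and in 3 and 3 without control 3. Cd4, Cd8a and Zap70 were at 0.26, 0.57 and −0.34, and at 0.46, 1.28 and −0.23 without control 3. B cell markers were lower in 1 and 2 of 6, also without control 3, with Cxcr5 at 1.31 and Cd22 at −0.06 (1.23 and 0.16 without control 3). Red blood cell markers were lower in 2 of 4 in both groups, and in 2 and 3 without control 3. Slc4a1, Alas2 and Hbb were at 0.17, −0.09 and 0.003, and at 0.33, −0.12 and −0.09 without control 3. Endothelial markers were lower in 3 and 4 of 8, and in 1 and 1 without control 3. Vwf, Stab2 and Kdr were at −0.54, 0.22 and 0.13, and at −0.15, 0.40 and 0.11 without control 3.

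Hepatocyte markers were lower in 3 of 5 in CUMS major and in 0 of 5 in CUMS mild, with Alb, Apoa1 and Ttr at −0.29, 0.24 and −0.13 in CUMS major. Without control 3, 4 and 1 of 5 were lower and these values were −0.42, 0.30 and −0.23. Their mean level relative to control lay between −0.18 and 0.21 in all 9 rats. No marker of any list was at a signal under 1 in any rat. Whether the tissue composition of control 3, its RNA quality or both have a part in the differences of the myeloid genes was not tested.

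**Figure D4:**
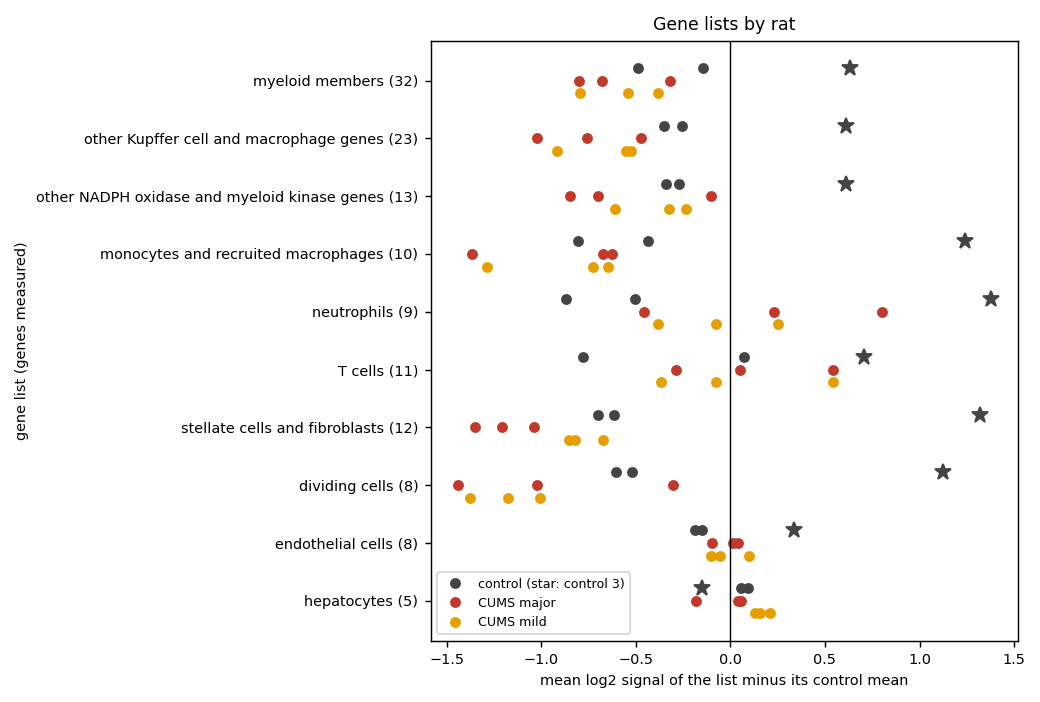
Mean log2 signal of each gene list in each rat, minus the control mean, with the number of genes measured in brackets and a star for control 3 (other controls black, CUMS major red, CUMS mild yellow). The star is the highest point in every list shown except hepatocytes, at 0.63 for the myeloid genes and 1.38 for neutrophil genes. Hepatocyte genes stay within −0.18 to 0.21.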

How the data were processed

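Liver RNA of 9 GK rats was measured, 1 array per rat, and groups were taken from the symptom labels. The authors extracted RNA with TRIzol and the RNeasy micro kit, used the 3′ IVT Express kit for labelling, and computed signals by MAS 5.0 after scanning. What they deposited is a signal intensity per probe set on a linear scale, which the authors had scaled array by array. Of 31099 probe sets, 57 control probe sets were left out. The 586 signals under 1 were set to 1 and log2 was taken.

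A gene was read from its single-symbol probe set with the highest mean log2 signal (20826 probe sets had 1 symbol, 436 several and 9780 none). The lower 40% of probe sets by mean signal were left out, which kept 18625. The 3 groups were fitted together in limma 3.58.1 (R 4.3.3) with 6 residual degrees of freedom and a variance trend. The p-values were adjusted by Benjamini-Hochberg over all probe sets kept, with a threshold of 0.05. The fit was tested on simulated data. The number of arrays limits the precision, and MAS 5.0 makes dim signals noisy.

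The genes and lists were chosen with earlier results of these data known. All 38 genes are named. Values in all rats are given for Kupffer cell markers, C1q and the 6 genes with the smallest p in each of 3 comparisons. Other genes with values in each rat (Mpeg1, Ccl2, Lyz2, Fcgr3a, Il1b) were picked after their values were seen. Up to 3 genes with the smallest p are named per other list. Alternatives were another normalization, centring, offset, filter, variance model, array weights, probe set rule, the ANOVA of the methods, a replicate block, and leaving out each rat. Promoter letters came from RefSeq GRCr8. The control and CUMS major rats share the numbers 1 to 3, but the correlations of their deviations were 0.003, −0.05 and 0.14, so the numbers were not taken to pair rats.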

Additional observations from a re-analysis of the deposited data

How the results depend on the processing

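No myeloid gene had an adjusted p under 0.05 in limma or in the ANOVA of the methods under any alternative run, and the direction of the median against control was negative in all of them. Leaving out 1 rat in turn moved the median to between −0.77 and −0.32 in CUMS major, −0.76 and −0.28 in CUMS mild and −0.77 and −0.31 over all CUMS. The count of genes lower at an unadjusted p under 0.05 depended on the processing. In CUMS major it went from 14 to 9 without a variance trend, to 7 with the mean of all probe sets of a gene (26 genes tested) and to 3 with the ANOVA of the methods. Leaving out 1 rat gave 4 (without CUMS 2) to 22 (without control 2), with 5 without control 3 and 7 without CUMS 1. In CUMS mild it went from 9 to 2 with the ANOVA, and to 2 (without control 3 or CUMS 5) to 19 (without control 2). Over all CUMS it went from 17 to 10 with array weights and to 10 with the ANOVA, and from 5 (without control 3) to 23 when 1 rat was left out, with 11 without CUMS 1. With the replicate number as a block in CUMS major against control, 28 of 30 genes were lower, the median was −0.53 and 20 lay lower at an unadjusted p under 0.05. In an alternative chosen after seeing the data, Cd180, Elmo1 and Ccl2 were set aside, which gave 11, 7 and 14 of 27 genes for CUMS major, CUMS mild and all CUMS, and 3, 1 and 3 with control 3 left out as well. The cause of these shifts was not tested. Some of these settings also had fewer genes or rats.

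Between CUMS major and CUMS mild, 23 of 30 tested genes were lower in CUMS major, but 15 of 26 with the mean of all probe sets, and 14 (without CUMS 2) to 27 with 1 rat left out, with 15 without CUMS 6. The median of −0.08 went from −0.24 to 0.00356, the latter without CUMS 2, and 0 to 1 genes lay lower at an unadjusted p under 0.05. Of 936 values of 14 single genes under the alternatives, 28 had another sign and 0 an adjusted p under 0.05. With 1 rat left out, Clec4f ranged from −0.27 to 0.059 in CUMS major, −0.054 to 0.29 in CUMS mild and −0.16 to 0.16 over all CUMS, where quantile normalization gave −0.014 and array weights −0.078. C1qa in CUMS mild ranged from −0.33 to 0.052. In CUMS major against CUMS mild the ranges were −0.27 to 0.20 for Cd163, −0.23 to 0.16 for Csf1r, −0.38 to 0.044 for Aif1, −0.26 to 0.073 for Adgre1, −0.39 to 0.20 for Cd180, −0.41 to 0.034 for Cd68, −0.25 to 0.036 for Fcer1g and −0.34 to 0.037 for C1qb. There quantile normalization gave −0.0072 for Cd163 and −0.013 for Csf1r, median centring −0.0079 and array weights −0.030 for Csf1r, and the mean of all probe sets 0.081 for Aif1.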
